A study of Homo sapiens with 10 samples.

Results

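RBFOX3, TBC1D16, CASZ1, NTNG2 and MCF2L are 5 human genes that were selected on the levels of 2 marks in K562 after 1 h, as genes whose windows held H3K27me3 furthest above γH2AX. Their levels in those libraries are given as a description, with no test. The genes span 0.902 Mb in all, which is 903 of the 2820626 bins of 1 kb in the deposited tracks. The rule states no cutoff.

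The study profiled chromatin of cultured human cell lines by CUT&RUN, in which a nuclease tethered to an antibody cuts out the DNA under its target for sequencing. The irradiated groups received 6 Gy from a cobalt source. They were K562 γH2AX after 1 h (n = 2) and after 24 h (n = 2), K562 H3K27me3 after 1 h (n = 1) and HepG2 γH2AX after 1 h (n = 1). The untreated groups were K562 H2AX (n = 2) and HepG2 H2AX (n = 2), whose antibody label names histone H4, so they are used as untreated chromatin whichever histone was bound. K562 is an erythroleukaemia line and HepG2 a hepatocellular carcinoma line. No H3K27me3 library of untreated K562, or of HepG2, was analysed here. The labels do not say whether replicates came from separate cultures, so p-values measure only the spread between these libraries.

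H3K27me3, trimethylation of lysine 27 on histone H3, is laid down by Polycomb repressive complex 2 and marks long stretches of silent developmental and lineage-specific genes. In vertebrates, Polycomb complexes are commonly found at CpG-rich promoters. γH2AX is the histone variant H2AX after phosphorylation on its tail, which spreads over large domains around DNA double-strand breaks. Of the genes, CASZ1 encodes a zinc-finger transcription factor of heart and neural development. RBFOX3 encodes the neuronal splicing regulator also known as the antigen NeuN. NTNG2 encodes netrin-G2, a membrane-anchored adhesion protein of neurons. MCF2L encodes a guanine nucleotide exchange factor of small GTPases, and TBC1D16 encodes a GTPase-activating protein of Rab GTPases, which act in membrane traffic.

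Each gene lies within an autosome arm in hg19 and was taken over its whole length, introns included. RBFOX3 lies at chr17:77085427-77512230 and TBC1D16 at chr17:77906142-78009657 on the same arm. CASZ1 lies at chr1:10696661-10856707, NTNG2 at chr9:135037334-135119941 and MCF2L at chr13:113623535-113752862. RBFOX3, TBC1D16, NTNG2 and MCF2L are 3.64, 3.14, 5.93 and 1.42 Mb from the last bin of their chromosome, and CASZ1 starts 10.7 Mb from the start of its own. The RefSeq gene table of GRCh38 matched all 5 genes and was used only for the names and order of neighbouring genes.

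Promoter sequence is shown because CpG-rich starts are the usual sites of Polycomb at silent genes. The RefSeq promoter table of GRCh38.p14 held 2 of the 5 genes, RBFOX3 with 12 starts and MCF2L with 7, and the start with the most CpG of each is printed, with each CpG in capitals. The RBFOX3 sequence is chr17:79609112-79609411 on the minus strand and the MCF2L sequence is chr13:112968964-112969263 on the plus strand, both in GRCh38.p14 and 300 bases long.
RBFOX3: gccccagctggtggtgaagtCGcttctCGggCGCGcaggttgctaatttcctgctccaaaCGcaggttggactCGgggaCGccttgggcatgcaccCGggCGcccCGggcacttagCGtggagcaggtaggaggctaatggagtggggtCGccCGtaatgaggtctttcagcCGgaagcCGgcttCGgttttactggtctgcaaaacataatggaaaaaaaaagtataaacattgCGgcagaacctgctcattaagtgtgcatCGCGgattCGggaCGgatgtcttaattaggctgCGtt
MCF2L: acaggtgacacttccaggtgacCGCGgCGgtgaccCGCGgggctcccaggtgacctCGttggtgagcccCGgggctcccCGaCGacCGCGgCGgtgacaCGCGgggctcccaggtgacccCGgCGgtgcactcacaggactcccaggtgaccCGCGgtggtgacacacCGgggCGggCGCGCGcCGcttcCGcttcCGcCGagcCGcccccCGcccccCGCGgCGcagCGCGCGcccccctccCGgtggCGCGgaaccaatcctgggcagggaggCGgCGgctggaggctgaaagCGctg
The MCF2L start holds 41 CG pairs (the letters CG, the same on both strands), and 6.69% of the 35116 promoters in the table hold at least as many. The RBFOX3 start holds 22, and 37.7% of the promoters hold at least as many. The least CpG-rich starts hold 10 in MCF2L and 4 in RBFOX3, against a median of 14 over all promoters. These positions cannot be placed on the hg19 tracks here, so no level is given for them.

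Levels are the mean depth over a gene divided by the mean depth of the same library over all bins, so 1 is the library average. Mean depth per base was 0.324 to 1.77 over the libraries. Coverage of sparsely covered bins came mostly in steps of 60 bases in the K562 1 h γH2AX and H3K27me3 libraries. In all other libraries the step was 41 bases. Comparisons of those 1 h libraries with H2AX or with 24 h γH2AX thus cross step lengths, and the effect of this was not tested. Read on their step lengths, which are taken as read lengths, the genes held from 646 reads (NTNG2 in HepG2 γH2AX) to 41414 reads (RBFOX3 in H3K27me3), a counting error of 3.93% to 0.491%. That error takes reads as independent and is smaller than most of the differences between replicates given below. The K562 24 h replicate 1 stands apart. Its track reads exactly 0 in all 933070 bins, 33.1% of the genome, in which the K562 1 h mean depth exceeded 1.64. Its own mean is taken over a partly empty track, and it is given separately and kept out of the main tests.

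The plot of levels in every library shows the 2 marks on opposite sides of untreated H2AX in each gene.

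**Figure D1:**
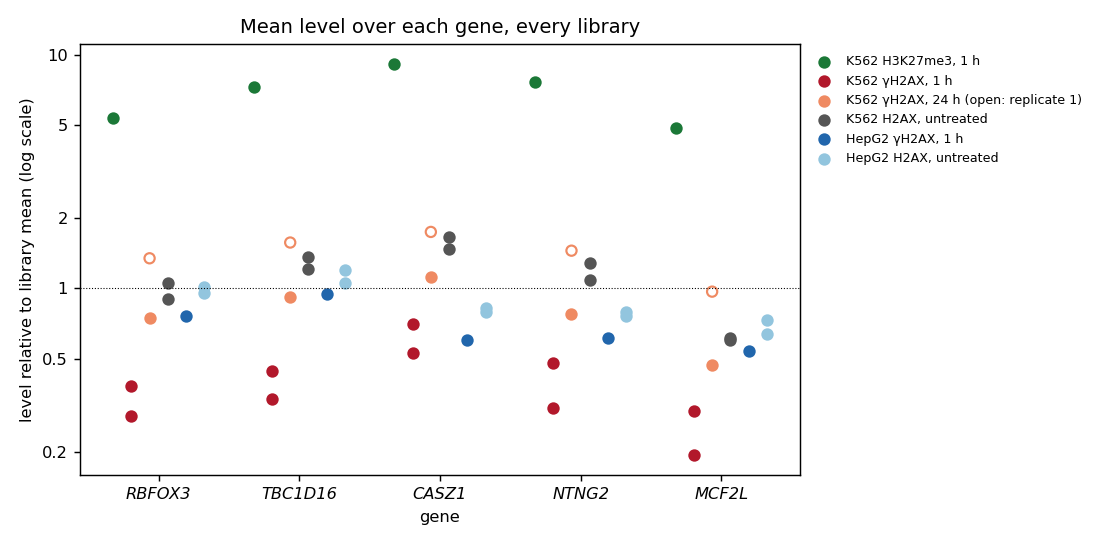
Mean level of each library over each gene, relative to the mean of that library, on a log scale. Each point is a library, the open circle is K562 24 h replicate 1, and the dotted line is the library average. H3K27me3 lies at 4.87 to 9.16, and the K562 1 h γH2AX points lie at 0.194 to 0.706, below both K562 H2AX points in every gene.

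CASZ1 had the highest H3K27me3 level, 9.16. Its γH2AX level at 1 h was 0.706 and 0.527 in K562, against 1.65 and 1.47 in untreated K562 H2AX. The log2 ratio to H2AX was 2.55 for H3K27me3 and -1.34 for 1 h γH2AX. Both 1 h libraries were below both H2AX libraries.

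NTNG2 had an H3K27me3 level of 7.63. Its 1 h γH2AX level was 0.480 and 0.307, against 1.28 and 1.09 in K562 H2AX. The log2 ratios to H2AX were 2.69 for H3K27me3 and -1.59 for γH2AX, again with no overlap between the 1 h and H2AX libraries.

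RBFOX3, the longest of the genes at 427 kb, had an H3K27me3 level of 5.35. Its 1 h γH2AX level was 0.384 and 0.284, against 1.05 and 0.906 in K562 H2AX, log2 ratios to H2AX of 2.45 for H3K27me3 and -1.55 for γH2AX. TBC1D16 had an H3K27me3 level of 7.26. Its 1 h γH2AX level of 0.442 and 0.335, against 1.36 and 1.22 in K562 H2AX, was the lowest of the genes relative to H2AX, a log2 ratio of -1.73.

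MCF2L had the lowest H3K27me3 level of the 5, 4.87, and also the lowest K562 H2AX levels, 0.614 and 0.600. Divided by H2AX it stood highest for H3K27me3, with a log2 ratio of 3.01. Of 27612 windows of 100 kb, those within the genes included, 2 reached as high. Its 1 h γH2AX level was 0.300 and 0.194 against those H2AX levels, a log2 ratio of -1.30. The order of the genes by H3K27me3 therefore depended on whether H2AX was divided out: CASZ1, NTNG2, TBC1D16, RBFOX3, MCF2L by level, and MCF2L, NTNG2, CASZ1, TBC1D16, RBFOX3 by ratio to H2AX. With 1 H3K27me3 library, neighbours in either order have no replicate check. The 1 h γH2AX ratios of all the genes overlapped once single replicates were paired. In CASZ1 they ran from -1.65 to -1.06 over the pairs of a 1 h and an H2AX library, and in TBC1D16 from -2.02 to -1.46.

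The ratio of H3K27me3 to 1 h γH2AX, which chose the genes, was 4.30 in MCF2L, 4.28 in NTNG2, 4.22 in TBC1D16, 4.0 in RBFOX3 and 3.89 in CASZ1 on the log2 scale. Of all 100-kb windows, those within the genes included, 0.0109% reached the MCF2L value and 0.301% the CASZ1 value. As this ratio chose the genes, these shares describe the choice and are no support for it. Windows within the genes also count in the other shares of 100-kb windows given here. The 1 h γH2AX deficit alone was less extreme. As low a log2 ratio to H2AX was found in 9.5% of the windows for MCF2L, 8.0% for CASZ1, 2.24% for RBFOX3, 1.59% for NTNG2 and 0.478% for TBC1D16.

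H3K27me3 filled the genes rather than parts of them. Every bin of TBC1D16 and NTNG2 was at or above the library average, as were 98.1% of the bins of CASZ1, 95.3% of RBFOX3 and 94.6% of MCF2L, against 26.4% of all bins. Bins with 1 h γH2AX at or above the average made up 8.13% of CASZ1 and 0.468% of RBFOX3, and none of the bins of the other 3 genes, against 34.4% of all bins. As both marks chose the genes, these shares also describe the choice and are no support for it.

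Within CASZ1, H3K27me3 dipped in one place. The 10-kb window at chr1:10746661-10756660, 50 kb from the low-coordinate end, had an H3K27me3 level of 2.79, against 11.7 in the highest window of the gene. The same window had the highest 1 h γH2AX of the gene, 0.816 and 0.955, against 1.5 and 1.41 in K562 H2AX. At the highest H3K27me3 window, chr1:10816661-10826660, 1 h γH2AX was 0.588 and 0.393, against 1.78 and 1.69 in H2AX.

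The other genes were flatter. H3K27me3 ranged over 10-kb windows from 6.99 to 8.23 in NTNG2, from 5.66 to 8.98 in TBC1D16, from 3.64 to 5.85 in MCF2L and from 2.65 to 8.54 in RBFOX3. The window of TBC1D16 with the least H3K27me3 had 1 h γH2AX of 0.419 and 0.298, and the one with the most had 0.518 and 0.295, so 1 h γH2AX differed there by less than it did between replicates. In RBFOX3 the highest H3K27me3 lay in the window 10 kb from the low-coordinate end, with 1 h γH2AX of 0.457 and 0.273, and the lowest lay 400 kb from it, with 0.505 and 0.320. In NTNG2 and MCF2L the windows with most H3K27me3 both began 20 kb from the low end.

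Across the windows inside a gene, the 2 marks had no common pattern of covariation. Spearman's rank correlation between H3K27me3 and 1 h γH2AX, each divided by a different H2AX replicate, was -0.14 in RBFOX3 (41 windows), -0.24 in CASZ1 (16), -0.24 in MCF2L (12), -0.43 in NTNG2 (8) and 0.59 in TBC1D16 (10). With the 100-kb flanks included it was -0.44, -0.62, -0.50, -0.74 and -0.26 in the same genes. Neighbouring windows share domains and libraries, so these are descriptions with no p.

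**Figure D2:**
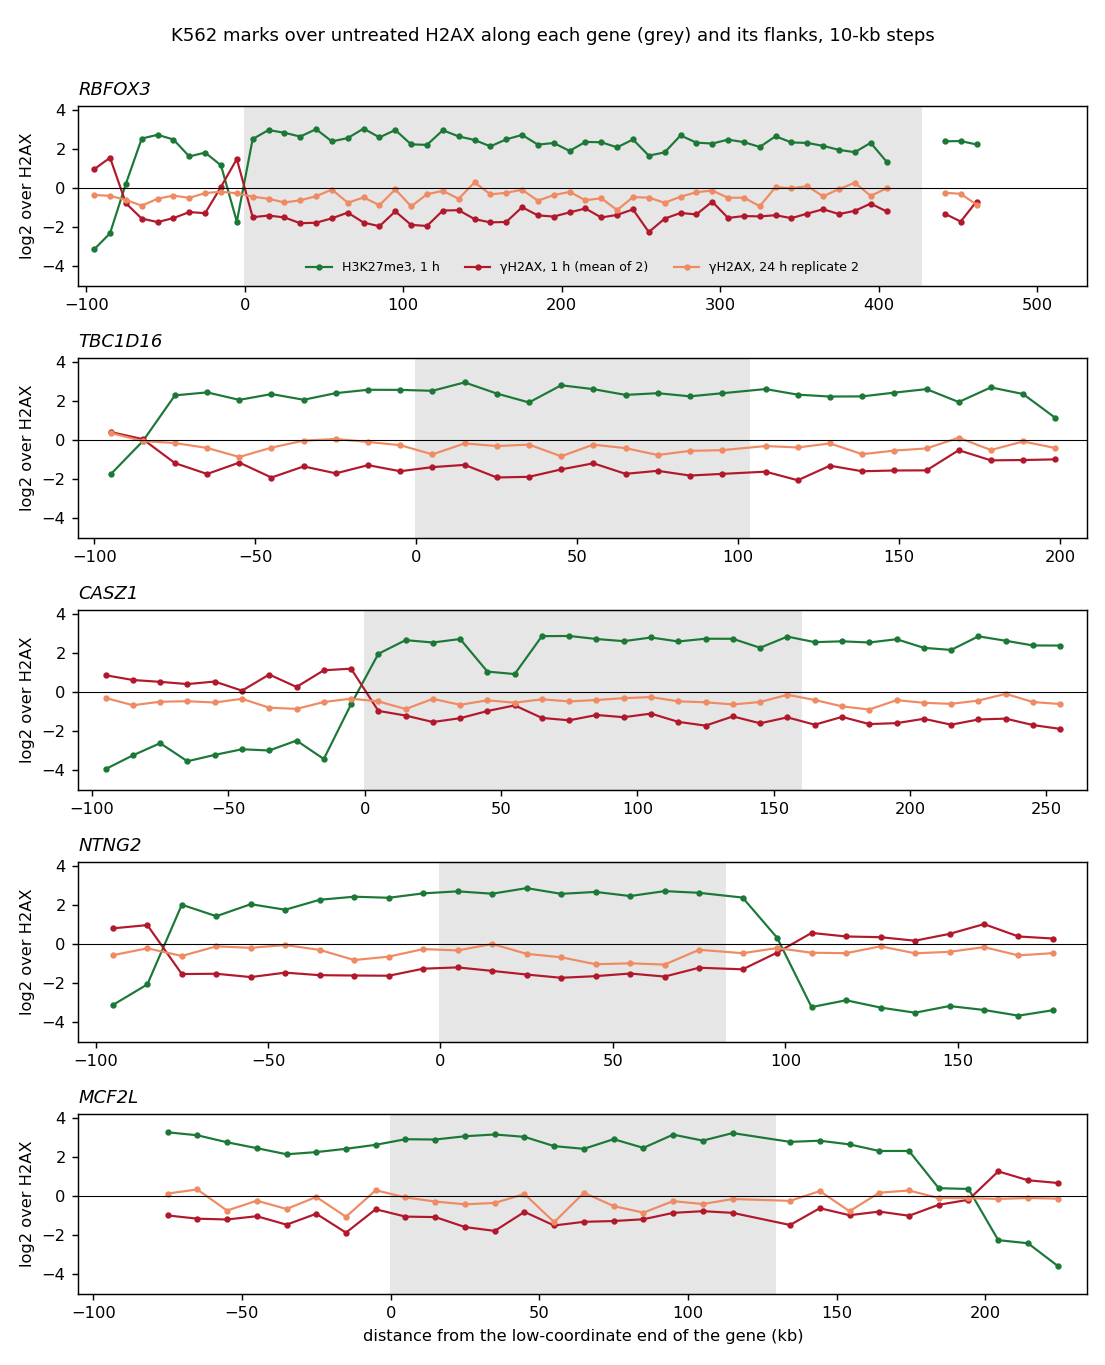
Log2 ratio to untreated K562 H2AX of H3K27me3 (green), 1 h γH2AX (red, mean of 2 libraries) and 24 h γH2AX replicate 2 (orange) in 10-kb steps, with a pseudocount of 0.05, along each gene (grey) and 100 kb of flank on both sides. Windows with H2AX below 0.25 of the average are left out. Green and red change sides at the low end of CASZ1, beyond the high end of NTNG2 and MCF2L, and at the low side of TBC1D16.

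The profiles show where runs of windows with H3K27me3 ended. Joined 10-kb windows at or above the library average ran for 420 kb at RBFOX3, 380 kb at CASZ1, 290 kb at TBC1D16, 270 kb at MCF2L and 190 kb at NTNG2. At RBFOX3 the run stopped on the high side where all libraries read close to 0. Past that, H3K27me3 was 6.21 again at chr17:77532231-77542230, so 420 kb is the length of the run and not the extent of the mark. At CASZ1 the stretch began 6.66 kb outside the low-coordinate end and ran on for 213 kb beyond the high end. At TBC1D16 it reached 86.1 kb and 100.3 kb beyond the ends. At NTNG2 it reached 87.3 kb and 20.1 kb beyond.

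CASZ1 had a border at its low end. In the 10 kb just inside its low end H3K27me3 was 5.23 and 1 h γH2AX was 0.750 and 0.546, against H3K27me3 of 0.963 and 1 h γH2AX of 2.98 and 4.09 in the 10 kb just outside. K562 H2AX changed less, 1.36 and 1.27 inside against 1.66 and 1.38 outside. The flank as a whole, where PEX14, a peroxisomal import gene, is the next protein-coding gene in the RefSeq order, had H3K27me3 of 0.277 and 1 h γH2AX of 2.95 and 3.52. The opposite flank resembled the gene, with H3K27me3 of 9.61 and 1 h γH2AX of 0.588 and 0.475.

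NTNG2 had a border on either side. Inside the stretch H3K27me3 was 6.29 and 1 h γH2AX was 0.570 and 0.473. The 50 kb beyond the high edge had H3K27me3 of 0.125 and 1 h γH2AX of 1.78 and 2.35, and the 50 kb beyond the low edge, toward the Mediator gene MED27 in the RefSeq order, had H3K27me3 of 0.215 and 1 h γH2AX of 1.80 and 1.82. K562 H2AX was 1.33 and 1.17 inside, against 1.69 and 1.42 beyond the high edge.

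RBFOX3 had a narrow break beside its low end. The gene is on the minus strand, so its low-coordinate end is its downstream end. The 10 kb just inside that end had H3K27me3 of 6.52 and 1 h γH2AX of 0.492 and 0.231. In the 10 kb just outside, at chr17:77075427-77085426, H3K27me3 was 0.266 and 1 h γH2AX was 2.36 and 3.37. Between 10 and 70 kb outside, H3K27me3 was again 2.85 to 8.63. The high end of the gene cannot be described, because all libraries read close to 0 over its last window and most of the 100 kb beyond. At MCF2L the low edge ran into a gap of 10 kb in the windows. Inside the stretch H3K27me3 was 4.47 and 1 h γH2AX was 0.319 and 0.220. Beyond its high edge H3K27me3 was 0.278 and 1 h γH2AX was 1.23 and 1.57. That edge lay 57.1 kb past the high end of the gene. On that side the coagulation factor gene F7 is next in the RefSeq order, and it was not placed inside or outside the stretch.

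**Figure D3:**
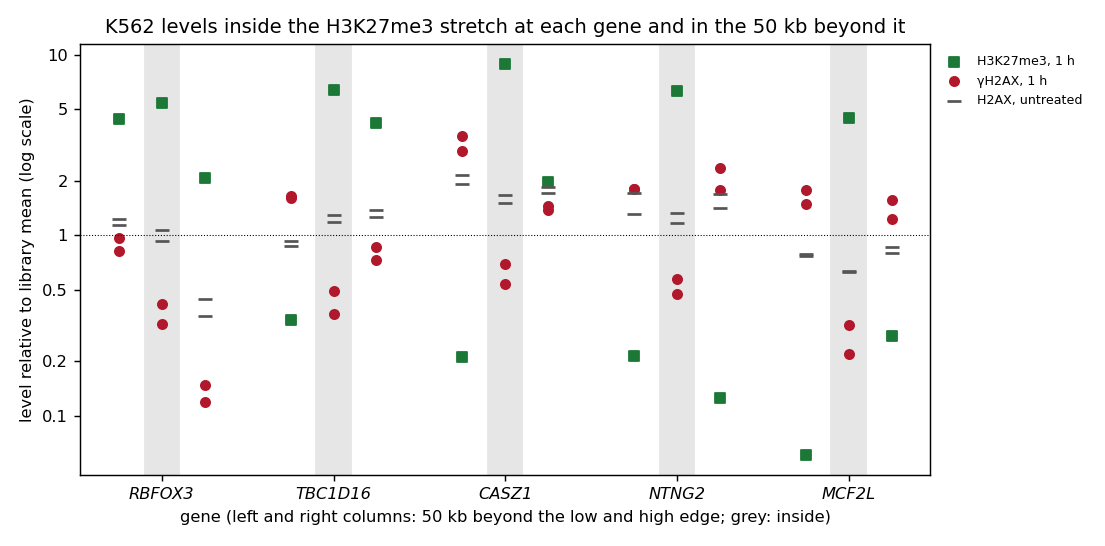
Levels relative to the library mean, on a log scale, inside the H3K27me3 stretch at each gene (grey) and over the 5 windows of 10 kb beyond its low edge (left) and high edge (right). Squares are the H3K27me3 library, dots the 1 h γH2AX libraries and bars the K562 H2AX libraries. On both sides of NTNG2 and MCF2L, and on the low sides of CASZ1 and TBC1D16, 1 h γH2AX was above H3K27me3; beyond the high edges of CASZ1, TBC1D16 and RBFOX3 and the low edge of RBFOX3 it was not.

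Over a whole gene against both 100-kb flanks, the 1 h γH2AX mean was lower in the gene in both libraries for all 5 genes. The log2 ratios were -1.37 and -2.27 in NTNG2, -1.33 and -1.92 in CASZ1, -0.88 and -1.54 in MCF2L, -0.62 and -1.32 in RBFOX3 and -0.34 and -0.39 in TBC1D16, whose flanks carry H3K27me3 too. K562 H2AX gave -0.24 and -0.26 in NTNG2 and -0.21 and -0.27 in CASZ1, but 0.48 and 0.49 in RBFOX3, where much of a flank is unread. The size depended on the summary: the median over the genes was -1.21 with means over bins and -0.59 with medians over bins, with which RBFOX3 turned to 1.00 and 0.38. With 50-kb flanks TBC1D16 was no longer lower, at 0.022 and 0.19, and the other 4 genes were. In 24 h replicate 2 the ratio with 100-kb flanks was -0.47 in NTNG2, -0.41 in MCF2L, -0.18 in CASZ1, -0.08 in TBC1D16 and 0.56 in RBFOX3. For MCF2L and TBC1D16, K562 H2AX gave -0.20 and -0.21, and 0.14 and 0.10.

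No γH2AX peak of the authors' 1 h lists overlapped any of the genes. These lists come from the 1 h libraries that chose the genes, so this absence describes the choice and is no support for it. The lists hold 41947 and 46072 peaks, 14.9 and 16.3 per Mb of bins, and 23 and 30 of them lay in the genes with their 100-kb flanks. Of the 3397 and 6785 peaks with a q-value under 0.05, 5 and 2 did. CASZ1 had 12 on its low flank in each list, the nearest 3.10 and 3.18 kb from the gene and with a fold enrichment, the authors' value, of 2.38 and 1.92. The nearest peaks to RBFOX3 lay 11.9 and 3.58 kb from its low end. Those nearest to NTNG2 lay 34.5 and 28.7 kb beyond its high end. The nearest peaks to TBC1D16 were 103.4 and 103.7 kb away, and those to MCF2L were 114.8 and 71.7 kb away. The lists of the 24 h libraries (8 and 13 peaks) and of HepG2 (170 peaks) placed none in the genes or flanks.

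Whether γH2AX also stood below H2AX outside the libraries that chose the genes was asked at 24 h in K562 and at 1 h in HepG2. In K562 at 24 h, replicate 2 was below both H2AX libraries in all 5 genes, while replicate 1, given further below, was above both. The share of all windows below both was not counted, and 46.8% of 10-kb windows had a log2 fold change below 0 in replicate 2. NTNG2 had 0.779 at 24 h, against 1.28 and 1.09 in K562 H2AX, a log2 ratio of -0.60, and 0.732% of 100-kb windows were as low. TBC1D16 had 0.917 at 24 h, against 1.36 and 1.22 in H2AX, and CASZ1 had 1.12, against 1.65 and 1.47. Their log2 ratios were -0.49 and -0.48, with 3.77% and 4.07% of windows as low.

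RBFOX3 had 0.745 at 24 h, against 1.05 and 0.906 in K562 H2AX, and MCF2L had 0.470, against 0.614 and 0.600. Their log2 ratios of -0.39 and -0.37 were reached by 9.38% and 11.1% of windows. On this scale the 24 h ratios of replicate 2 were smaller in size than those at 1 h in each gene; the difference between times was not tested, since the 1 h libraries chose the genes.

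Over 10-kb windows none of these differences passed the test. By limma on log2(level + 0.05) across 274255 windows, 0 (0%) were called at an adjusted p under 0.05, and 0 of the 88 windows of the genes, whose adjusted p was 0.307 to 0.997. At an unadjusted p under 0.05, 36632 windows passed, of them 17706 lower (6.46%), and 26 of the 88, all lower (13 in RBFOX3, 5 in CASZ1, 3 each in NTNG2 and TBC1D16 and 2 in MCF2L). The median log2 fold change was -0.40 in the 88 windows, against 0.03 in all windows. Of the 88, 78 were below 0, against 46.8% of all windows. With both 24 h replicates in the fit the median was -0.06, against 0.15 in all windows. In that fit 52 of the 88 were below 0, against 40.2% of all windows. At an unadjusted p under 0.05, 0 of the 88 were lower, against 2.49% of all windows. Neighbouring windows are not independent, and the 24 h group is a single library here, assumed to vary like the other groups.

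The calls depended on the 1 h libraries, which enter this fit only through the shared spread. With only the compared libraries, limma called 30 of the 88 windows lower at an adjusted p under 0.05, against 7.6% of all windows, and without 1 h replicate 1 or replicate 2 it called 31 lower, against 6% and 5.88%. With 24 h replicate 1 in place of replicate 2, 14 of the 88 were called higher, against 28.3% of all windows.

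In 24 h replicate 1 the levels were 1.35 in RBFOX3, 1.57 in TBC1D16, 1.74 in CASZ1, 1.45 in NTNG2 and 0.969 in MCF2L, above both K562 H2AX libraries in every gene. Log2 ratios to H2AX as high as in the genes were found in 27.7% (MCF2L) to 58.4% (CASZ1) of 100-kb windows, whose median was 0.35. Of the bins in the genes, 3.98% of RBFOX3, 6.25% of CASZ1 and 1.55% of MCF2L read 0, and none in TBC1D16 and NTNG2, against 36.2% of all bins. When every library was divided by its mean over the bins where this replicate can hold signal, a scaling chosen after the data were seen, its log2 ratios to H2AX were -0.32 in RBFOX3, -0.49 in TBC1D16, -0.62 in CASZ1, -0.48 in NTNG2 and -0.10 in MCF2L. Those of replicate 2 were then -0.44, -0.53, -0.53, -0.65 and -0.42 in the same genes, and those of the 1 h libraries -0.82, -1.0, -0.61, -0.87 and -0.58. That scaling leaves out the bins with the highest 1 h depth. The 1 h libraries were thus divided by 0.794 and 0.870 in place of 1.43 and 1.77, which raised their levels by construction. On that scale CASZ1 had nearly the same ratio at 24 h in replicate 1 as at 1 h, and no likeness between the times can be read from it. The direction in replicate 1 thus turned with the scaling, and that in replicate 2 did not.

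HepG2 γH2AX at 1 h, a single library, was also below both HepG2 H2AX libraries in all 5 genes. The share of all windows below both was not counted, and 50.1% of 10-kb windows had a log2 fold change below 0. CASZ1 had 0.605, against 0.822 and 0.796 in HepG2 H2AX, a log2 ratio of -0.42 that 2.51% of 100-kb windows reached. RBFOX3 had 0.766, against 1.02 and 0.957, and NTNG2 had 0.616, against 0.794 and 0.762. MCF2L had 0.538, against 0.732 and 0.639, and TBC1D16 had 0.944, against 1.2 and 1.06. Their log2 ratios were -0.37, -0.34, -0.35 and -0.26 in that order, reached by 4.48%, 5.87%, 5.12% and 11.1% of windows.

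In 10-kb windows limma called 0 of 274255 (0%) in HepG2 and 0 of the 88 windows of the genes, with adjusted p of 0.430 to 0.998. At an unadjusted p under 0.05, 21654 windows passed, 14580 of them lower (5.32%), and 20 of the 88, all lower (9 in RBFOX3, 6 in CASZ1, 4 in MCF2L, 1 in NTNG2 and 0 in TBC1D16). With K562 24 h replicate 1 added to the fit, 3 of the 88 passed at that level, all lower, against 0.596% of all windows lower. The median log2 fold change was -0.30 in the 88 windows and 0.00 in all windows, and 77 of the 88 were below 0, against 50.1% of all. With only the compared libraries 9 of the 88 were called lower at an adjusted p under 0.05, against 2.61% of all windows, and without either of the 1 h K562 replicates 15 were, against 3.63% and 3.59%. The HepG2 γH2AX group is a single library, and the chromatin state of the genes in HepG2 was not measured here.

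Untreated H2AX was also compared between the lines. Copy number of the lines enters this comparison and was not tested. CASZ1 had 1.65 and 1.47 in K562, against 0.822 and 0.796 in HepG2, a log2 ratio of 0.95 that 4.38% of 100-kb windows reached. NTNG2 had 1.28 and 1.09 in K562, against 0.794 and 0.762 in HepG2, a log2 ratio of 0.60. In both genes the lines did not overlap. Their 100-kb flanks differed in the same direction. The flanks of CASZ1 had 1.59 to 2.10 in K562 H2AX, against 0.851 to 0.939 in HepG2 H2AX. Those of NTNG2 had 1.26 to 1.56, against 0.802 to 0.911, so the difference was not confined to these genes. TBC1D16 had 1.36 and 1.22 in K562, against 1.2 and 1.06 in HepG2, a log2 ratio of 0.19. RBFOX3 (log2 ratio -0.01, changing sign with the scaling or a left-out library) overlapped between the lines, and MCF2L was lower in K562, 0.614 and 0.600 against 0.732 and 0.639 in HepG2, a log2 ratio of -0.18.

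By limma, 83093 of the 274255 windows (30.3%) were called between the lines at an adjusted p under 0.05, 38973 higher (14.2%) and 44120 lower (16.1%) in K562, and under median-of-ratios scaling 54733 were higher and 32597 lower. In the genes 19 of the 88 windows were called, all higher in K562: 16 of 16 in CASZ1, 3 of 8 in NTNG2 and 0 in RBFOX3, TBC1D16 and MCF2L. Under median-of-ratios scaling 23 were called, all higher.

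The largest was chr1:10750001-10760000 in CASZ1, which overlaps the window of the H3K27me3 dip, with 1.57 and 1.34 in K562 H2AX, against 0.553 and 0.656 in HepG2 H2AX. Its log2 fold change was 1.2 (SE 0.20, limma adjusted p = 0.00161, n = 2 each). The next were chr1:10830001-10840000 (1.09), chr1:10850001-10860000 (1.07), chr1:10790001-10800000 (1.00) and chr1:10760001-10770000 (0.99), all in CASZ1, with limma adjusted p of 0.00324 to 0.0126. The count rested on single libraries: it fell when any H2AX library was left out, in the genes and over all windows alike. The median log2 fold change of the 88 windows, 0.12 in the main fit, was 0.03 without K562 H2AX replicate 1 and 0.22 without replicate 2. Without HepG2 H2AX replicate 1 or 2 it was 0.18 or 0.05. With 24 h replicate 1 added, 0 windows were called in the genes and 0 in all. With only the H2AX libraries compared, 32 of the 88 were called, 26 higher and 6 lower, against 50.5% of all windows.

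**Figure D4:**
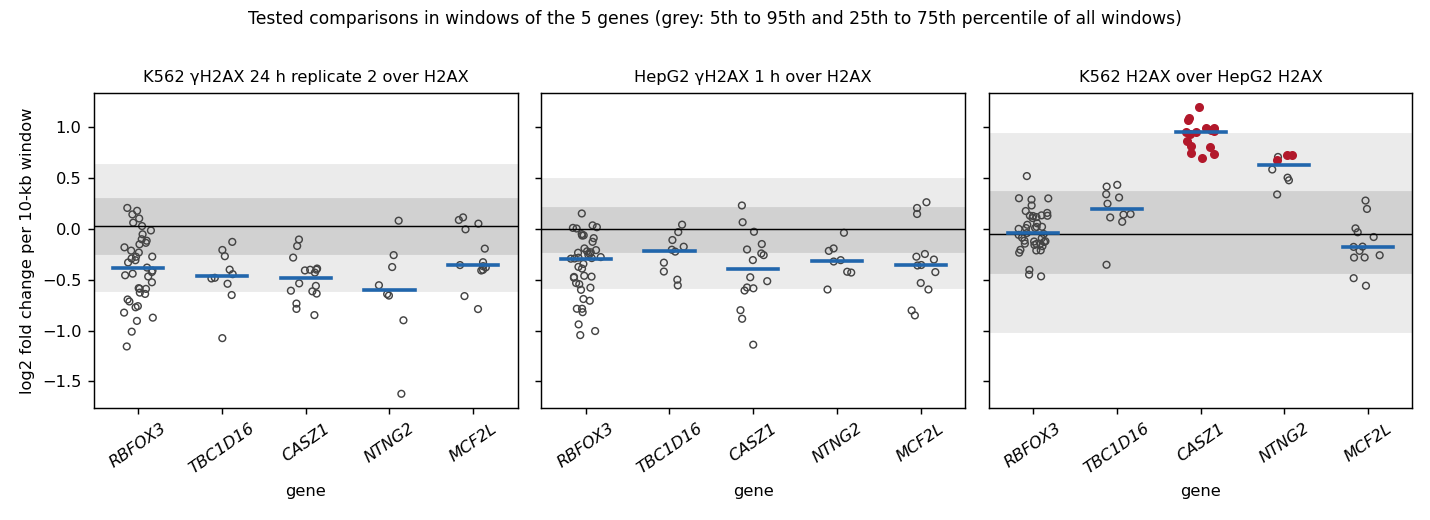
Log2 fold change of each 10-kb window of the genes in the 3 tested comparisons. Red dots are windows called by limma at an adjusted p under 0.05, open circles those not called, and blue bars the median of a gene; the black line and grey bands give the median and percentiles of all 274255 windows. The blue bars lie below the black line in the first 2 panels, and red dots appear only in CASZ1 and NTNG2 in the third.

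The windows of 100 kb most alike to the mean of the 5 genes, over 9 libraries and among 27588 windows away from them, were chr11:69600001-69700000, chr3:184300001-184400000 and chr11:1800001-1900000. The mean absolute log2 difference from that mean was 0.112 for NTNG2, the closest of the genes, and 0.522 for MCF2L, the farthest, against 0.068, 0.081 and 0.093 for these windows. At chr11:69600001-69700000 the H3K27me3 level was 5.96 and 1 h γH2AX was 0.416 and 0.305, against 1.19 and 0.987 in K562 H2AX.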

How the data were processed

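Judged from their values, the deposited tracks hold signal, the mean read coverage per base in 1-kb bins of hg19, not scaled to depth. The deposited peak lists give, per peak, the authors' fold enrichment and its p-value and q-value as −log10, in MACS2's layout, called per library; the control is not stated in the labels. The tools were, per the submitters' notes on processing, MACS2, SAMtools and BWA 0.7.12, with no roles given. Mean depth was 0.324 to 1.77 per base, which on the step lengths is 22.3 to 83.1 in units of 1e6 reads per library; counting errors cover counting only.

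Each library was divided by its mean over all bins. Windows of 10 kb with at least 50% of their bins, outside chromosome Y, with H2AX of both lines at 0.25 of the mean or above, were fitted on log2(level + 0.05), which understates changes of low windows, with a mean-variance trend (R 4.3.3, limma 3.58.1). The fit held 9 libraries in 6 groups (3 residual degrees of freedom), without K562 24 h replicate 1, and p-values were adjusted over all windows by Benjamini-Hochberg. A window belonged to a gene by at least 50% overlap. Tested on simulated data, with log2 changes of 0.5 or more and the same spread in all groups, the fit returned the changes put in. For the 24 h and HepG2 comparisons it called none of the smallest. The median changes in the genes were smaller still and were not simulated, so a lack of calls there does not show that levels were alike. Peaks counted on any overlap. The members and lists were chosen with earlier results of these data known. The windows named are those with most and least H3K27me3 and most 1 h γH2AX per gene, up to 5 called windows per comparison and the 3 most alike; border windows were chosen after their values were seen. The alternatives were another scaling, pseudocounts of 0.01 and 0.5, no filter, 100-kb windows, other sets of libraries, a replicate block, other flanks (50 and 200 kb) and peak rules. Analyses used Python 3.11.15, numpy 2.4.6, pandas 2.3.3 and scipy 1.17.1.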

Additional observations from a re-analysis of the deposited data

Results flagged for a closer look

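The K562 24 h replicate 1 was kept out of the main tests, and its γH2AX level stood above both untreated K562 H2AX libraries in all 5 genes, which marks it for a closer look. The level relative to its library mean was 1.346 in RBFOX3, 1.572 in TBC1D16, 1.745 in CASZ1, 1.451 in NTNG2 and 0.969 in MCF2L. Its track reads 0 in 36.2% of all bins, and on the scale of the bins where it can hold signal its log2 ratios to H2AX were -0.62 to -0.10. On the main scale, log2 ratios as high as in the genes were found in 27.7% to 58.4% of 100-kb windows.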

How the results depend on the processing

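K562 24 h against H2AX called 0 windows; the count became 57 with no filter (0 in the genes), 36972 with only the libraries compared (30 in the genes), 0 to 30016 over the fits that leave out a replicate (0 to 31 in the genes), and 151661 with 24 h replicate 1 in place of replicate 2 (14 in the genes). HepG2 γH2AX against H2AX called 0; the count became 84 with no filter, 10615 with only the libraries compared (9 in the genes), 1 with scaling to the bins where 24 h replicate 1 can hold signal, a setting chosen after seeing the data, and 0 to 12278 over the left-out replicates (0 to 15 in the genes). K562 H2AX against HepG2 H2AX called 83093 (19 in the genes), and the count became 14945 of 27612 with 100-kb windows (3 of 10 in the genes), 0 and 0 with all 10 libraries, also with that added scaling, 138503 with only the libraries compared (32 in the genes), and 11571 to 138499 over the left-out replicates (0 to 32 in the genes). The cause of these changes was not tested. Replicate numbers are shared between groups, but the deviations of same-numbered libraries correlated at 0.017 to 0.068, so they share only a number; the replicate block gave 0, 0 and 85026 calls (0, 0 and 20 in the genes).

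The median over the genes of 1 h γH2AX over its 100-kb flanks was -0.59 with medians over bins. The median log2 ratio of 1 h γH2AX to H2AX was -1.55 and ran from -1.78 to -1.30 over left-out replicates. Under median-of-ratios scaling that median was smaller in size, at -1.24, and the genes ran from -1.41 in TBC1D16 to -0.99 in MCF2L. The log2 ratio of H2AX between the lines in RBFOX3 changed sign under median-of-ratios scaling (0.12), without K562 H2AX replicate 2 (0.092) and without HepG2 H2AX replicate 1 (0.032); over the left-out replicates it ran from -0.12 to 0.092. Of the 110 alternative values of the ratios of H3K27me3, 1 h γH2AX, 24 h γH2AX replicate 2 and HepG2 γH2AX to H2AX, 0 changed sign. The ratios of 24 h replicate 1 changed sign in all 5 genes under the added scaling. Median-of-ratios scaling moved the levels of H3K27me3 by 1.33 and of 24 h replicate 1 by -0.55 on the log2 scale. It moved those of the K562 1 h γH2AX libraries by 0.15 and 0.25. At 2 times the library mean the H3K27me3 stretches, a setting chosen after seeing the data, were 410, 280, 380, 170 and 220 kb for RBFOX3, TBC1D16, CASZ1, NTNG2 and MCF2L. Single libraries of H3K27me3, HepG2 γH2AX and 24 h γH2AX limit these values.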
